A study of Arabidopsis thaliana with 6 samples.

Results

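The genes described here lay, by messenger RNA level, on the same side of the untreated level in both treatments of a gibberellin study. The treatments were meant to raise the gibberellin supply (GA) or to block its synthesis (PBZ). Whole rosettes of Arabidopsis thaliana were measured on 6 arrays in 3 groups of 2 biological replicates. Plants of the GA group got a spray of GA3, an active gibberellin, every other day (1 mL at 50 µM). The PBZ plants received 10 mL of a 50 mg/L solution of paclobutrazol (0.5 mg per pot) at day 14. The control plants had no treatment, and the labels describe no mock spray or mock watering for them, so the agents and the act of applying them cannot be told apart. All 3 groups were Col-0 plants that carry the transgene 35S:HF-RPL18B, a tagged ribosomal protein driven by the constitutive 35S promoter. They grew in soil with 16 h of light, and harvest was at day 27 by the sample titles and day 25 by another label.

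A probe set, the group of short probes that is read as 1 value, was taken when both GA arrays and both PBZ arrays lay above, or both lay below, both control arrays. Of 22746 probe sets, 2889 met this rule (12.7%): 1363 with the treated arrays higher (5.99%) and 1526 with them lower (6.71%). The 2 control arrays entered both differences, and the direction of a member is fixed by the rule, so these counts are a description and carry no test. Arrays can fall in this order without any effect of treatment. The share that would do so was not computed here, so the number of members is not read as the size of a shared response. With 1 control array left out, which makes the rule easier to meet, 3632 or 4081 were higher and 3734 or 4352 lower. Taking the brightest probe set of each gene, 1646 of 13355 genes with a probe set of their own were members, and 192 of these have a symbol beyond their locus code.

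Gibberellins are diterpenoid hormones that bind the GID1 receptors and lead to the breakdown of DELLA proteins, which hold back growth. Paclobutrazol blocks ent-kaurene oxidase, an early enzyme of gibberellin synthesis, and it is known for giving compact, dark green plants. The treatments were thus meant to act on gibberellin supply in opposite directions. The genes below lay on the same side of the untreated level in both treatments.

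Median intensities of the 6 arrays were 32.4 to 33.9, and arrays of 1 group correlated at 0.981 to 0.988, arrays of different groups at 0.967 to 0.986 (Pearson, log2 scale, across probe sets). The summed intensity of 8 nuclear photosynthesis genes, the leaf markers, was 26524 and 24691 in GA, 25730 and 26889 in PBZ and 29930 and 24865 in control arrays. The groups overlap, and these leaf genes lie far above the median intensity. No flower marker of the list had a probe set of its own. Of the seed markers, OLEO3 read 6.5 to 13.1 on all arrays. PAP85 read 1.4 and 4.5 in GA, 4.0 and 7.7 in PBZ and 7.4 and 10.9 in control, all near or under the pseudocount of 10 used below. Its treated minus control log2 difference had a limma adjusted p of 0.558. Its PBZ and control arrays overlap, and it is no member. PYK10, the measured root marker, is also a gene of endoplasmic reticulum bodies in shoots, and read 54.0 and 78.8 in GA, 446.5 and 376.5 in PBZ and 92.6 and 130.2 in control. It lay on opposite sides in the treatments and is no member.

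No member passed the test of the mean of both treatments minus control. A large difference in 1 treatment can carry this mean, so a pass would not by itself show a common change. The mean of both treatments minus control was tested on log2(intensity + 10), which understates the change of dim probe sets, with limma over all 22746 probe sets. With Benjamini-Hochberg adjustment 0 passed (0%), and the smallest adjusted p was 0.112. At an unadjusted limma p under 0.05 there were 2008 (8.83%), of which 1334 were members. The rule chose the members from these same values, so nothing is read from this overlap. The median standard error (SE) of the mean of both treatments minus control was 0.14, and the number of arrays limits the precision. When the 40% dimmest probe sets were left out, 70 of 13647 passed (0.513%), 34 of them higher members and 14 lower members. The filter went by the mean over all arrays, and 17 of these 48 members had at least 1 group mean under its limit of 19.3, so this count is no support for a common change. The genes below are therefore given by their levels, and words such as higher and lower refer to the arrays.

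Most differences were small. Both treatments differed from control by at least 1.5-fold in 103 of the 1363 higher members and in 48 of the 1526 lower members. At least 2-fold in both was seen for 10 higher and 0 lower members. Of these 10, 3 name a gene, namely CHI, AT3G18250 and AT3G13950. The brightest of the others, unnamed here, read 575.8 and 1110 in GA, 819.9 and 1868 in PBZ and 51.0 and 119.1 in control. These 10 were chosen by size after the values were seen.

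**Figure D1:**
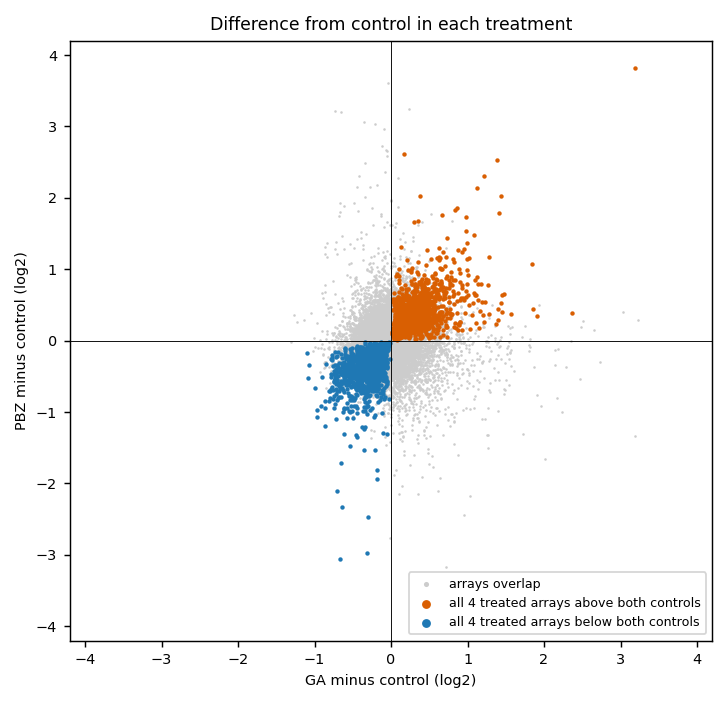
Each point is 1 of 22746 probe sets, with GA minus control on the horizontal axis and PBZ minus control on the vertical axis, both as log2 differences of group means (n = 2 arrays each). Orange and blue points are the 1363 higher and 1526 lower members, which fill the upper right and lower left corners by the rule; both axes use the same 2 control arrays.

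Among the 12 named genes with higher levels under both treatments, ranked by the smaller of their GA and PBZ differences, the chitinase gene came first, followed by genes of mitochondrial respiration, calcium sensing and the cell wall. Chitinases cut chitin, a polymer of fungal walls, and CHI (AT2G43570) is annotated as a putative chitinase, a symbol it shares with chalcone isomerase. CHI had intensities of 115.6 and 127.9 in GA and 225.4 and 343.5 in PBZ, against 39.9 and 40.5 in control arrays. All 4 treated arrays were more than double the control level. The mean of both treatments lay 3.88-fold above control (log2 1.96, SE 0.18, limma adjusted p = 0.136). Without the dimmest probe sets this p was 0.00256, in a range of 0.00256 to 0.912 over 17 alternatives. In bulk tissue, more cells that express a gene and more RNA per cell cannot be told apart, here and below.

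NDB2 (AT4G05020), an alternative NAD(P)H dehydrogenase of the mitochondrial inner membrane, read 35.5 and 31.3 in GA and 39.4 and 36.0 in PBZ, against 16.8 and 18.5 in control (log2 0.72, SE 0.11, adjusted p = 0.234). Its PBZ arrays lie just above its GA arrays, and all 4 clear the controls by a wide gap. CML41 (AT3G50770), a calmodulin-like calcium sensor, read 36.7 and 53.0 in GA, 70.0 in both PBZ arrays, and 26.0 and 25.5 in control (log2 0.88, SE 0.15, adjusted p = 0.243). Here the PBZ arrays were above the GA arrays. With the dimmest probe sets left out, NDB2 had an adjusted p of 0.0351 and CML41 one of 0.0335, in ranges of 0.0351 to 0.912 and 0.0335 to 0.998; the control mean of NDB2, 17.6, is under the filter's limit.

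The U-box ubiquitin ligases PUB23 and PUB26, which mark proteins for breakdown and of which PUB23 is known to dampen immune signalling, differed in pattern. PUB23 (AT2G35930) had 73.7 and 49.8 in GA, 13.9 and 14 in PBZ and 12.6 and 5.7 in control, so the PBZ arrays only just cleared the higher control. PUB26 (AT1G49780) had 42.2 and 38.7 in GA, 43.5 and 36.4 in PBZ and 20.8 and 34.3 in control, and its treatments overlap. The control arrays of PUB26 lie far apart, and its log2 difference of 0.44 (SE 0.17, adjusted p = 0.552) ran from 0.18 to 0.70 over 17 alternatives.

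Among the other named higher genes, the wall-related TBL26 (AT4G01080, of the trichome birefringence-like family) read 84.8 and 113.8 in GA and 120.6 and 104.3 in PBZ, against 54.0 and 73.7 in control. SAL2 (AT5G64000), a relative of the phosphatase SAL1, read 25.9 and 49.3 in GA and 26.9 and 32.7 in PBZ, against 19.2 and 15.4. MSRB9 (AT4G21850), which repairs oxidised methionine, read 45.9 and 53.8 in GA and 62.4 and 58.9 in PBZ, against 27.1 and 42.5. The treatments overlap in TBL26 and SAL2, while in MSRB9 the PBZ arrays lie above the GA arrays and control replicate 2 comes near the lower GA array. PCME (AT5G15860), an esterase acting on prenylated proteins, QQS (AT3G30720), a gene that affects starch content, PM-ANT (AT5G56450), an adenine nucleotide carrier, and BZIP28 (AT3G10800), a membrane-bound transcription factor of the unfolded protein response, had log2 differences of 0.58, 0.42, 0.33 and 0.33. None of these 12 passed (adjusted p from 0.136 to 0.552).

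**Figure D2:**
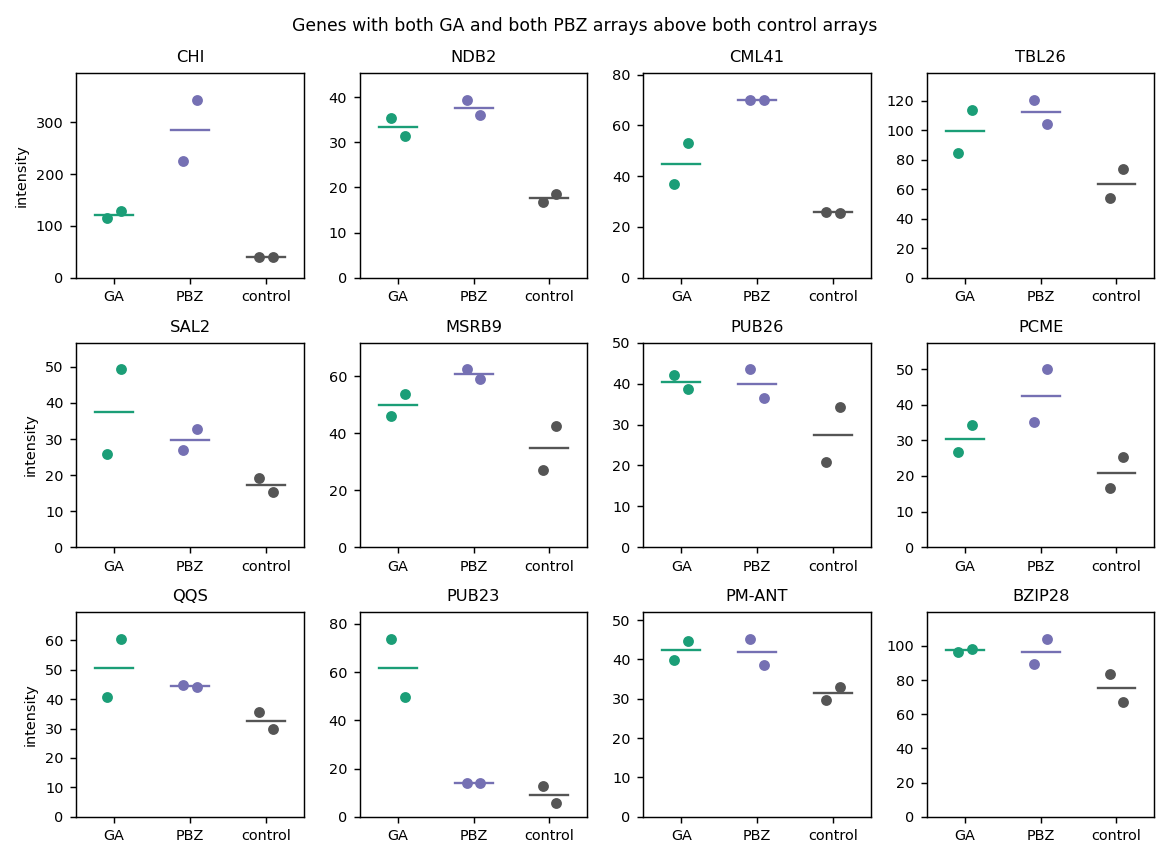
Intensity (linear scale from 0) of the 12 named higher genes in the 2 GA, 2 PBZ and 2 control arrays; points are arrays and short lines are group means. CHI is highest in PBZ, PUB23 is high in GA while its PBZ arrays read 13.9 and 14, and NDB2, PM-ANT and BZIP28 are about level in GA and PBZ.

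Of higher genes known by locus code only, AT5G39520 read 56.4 and 71.1 in GA and 125.0 and 148.5 in PBZ, against 26.6 and 34.8 in control (log2 1.36, SE 0.15, adjusted p = 0.186). The groups form 3 steps, with PBZ at the top. AT1G76960, the brightest of the 5 named, read 531.5 and 608.8 in GA and 451.1 and 725.0 in PBZ, against 306.6 and 319.4 in control (log2 0.85, SE 0.20, adjusted p = 0.395). AT3G18250, AT1G65690 and AT3G47480 had log2 differences of 1.76, 0.96 and 0.85 (adjusted p = 0.438, 0.395 and 0.459). The control arrays of AT3G18250 were far apart, at 3.3 and 22.4.

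Among the 12 named genes with lower levels under both treatments, the expansin gene EXPA8 stood apart in size, and the rest, spread over the plastid, RNA processing, cold and cytokinin response and metabolite transport, differed by less than 1.5-fold in the mean of both treatments. EXPA8 (AT2G40610) encodes a protein that loosens walls during growth, and read 391.7 and 442.3 in GA and 57.1 and 88.9 in PBZ, against 699.2 and 638.0 in control. The GA arrays lay below control by a log2 difference of 0.67 in size and the PBZ arrays far below both, so the common side hides unequal sizes. The mean of both treatments was 3.64-fold under control (log2 -1.86, SE 0.18, adjusted p = 0.136), with an adjusted p of 0.00271 to 0.998 over 17 alternatives.

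The plastid gene clpP, for a subunit of the Clp protease, read 79.6 and 79.9 in GA and 96.0 and 99.8 in PBZ, against 119.9 and 145.5 in control (log2 -0.53, SE 0.12, adjusted p = 0.373). It is lower in GA than in PBZ, with tight replicates in both. RR16 (AT2G40670), a type-A response regulator that damps cytokinin signalling, read 135.0 and 143.2 in GA and 112.5 and 94.8 in PBZ, against 169.8 and 181.0 in control (log2 -0.51, SE 0.12, adjusted p = 0.373). Its relative ARR15 (AT1G74890), chosen by the cytokinin list, had a log2 difference of -0.37 (adjusted p = 0.656). COR27 (AT5G42900), a cold-regulated gene under clock control, read 304.7 and 305.8 in GA and 272.6 and 258.7 in PBZ, against 408.1 and 359.6 in control (log2 -0.42, SE 0.11, adjusted p = 0.420).

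TINY2 (AT5G11590), a transcription factor of the DREB family, read 38.6 and 41.2 in GA and 40.4 and 45.5 in PBZ, against 58.2 and 56.2 in control. TET3 (AT3G45600), a tetraspanin of cell membranes, read 210.2 and 202.0 in GA and 250.9 and 206.0 in PBZ, against 312.4 and 278.1. In both genes the treated groups overlap, and every treated array is clear of the controls. LSM3A (AT1G21190), a subunit of RNA-processing complexes, UBP20 (AT4G17895), a ubiquitin-specific protease, GH9C2 (AT1G64390), of the glycosyl hydrolases that cut wall glucans, SK18 (AT1G10230), an SKP1-like subunit of ubiquitin ligases, MBAC1 (AT2G33820), a mitochondrial carrier of basic amino acids, and CCT2 (AT4G15130), an enzyme of phosphatidylcholine synthesis, had log2 differences from -0.46 (LSM3A) to -0.32 (MBAC1). None of these 12 passed (adjusted p from 0.136 to 0.558).

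**Figure D3:**
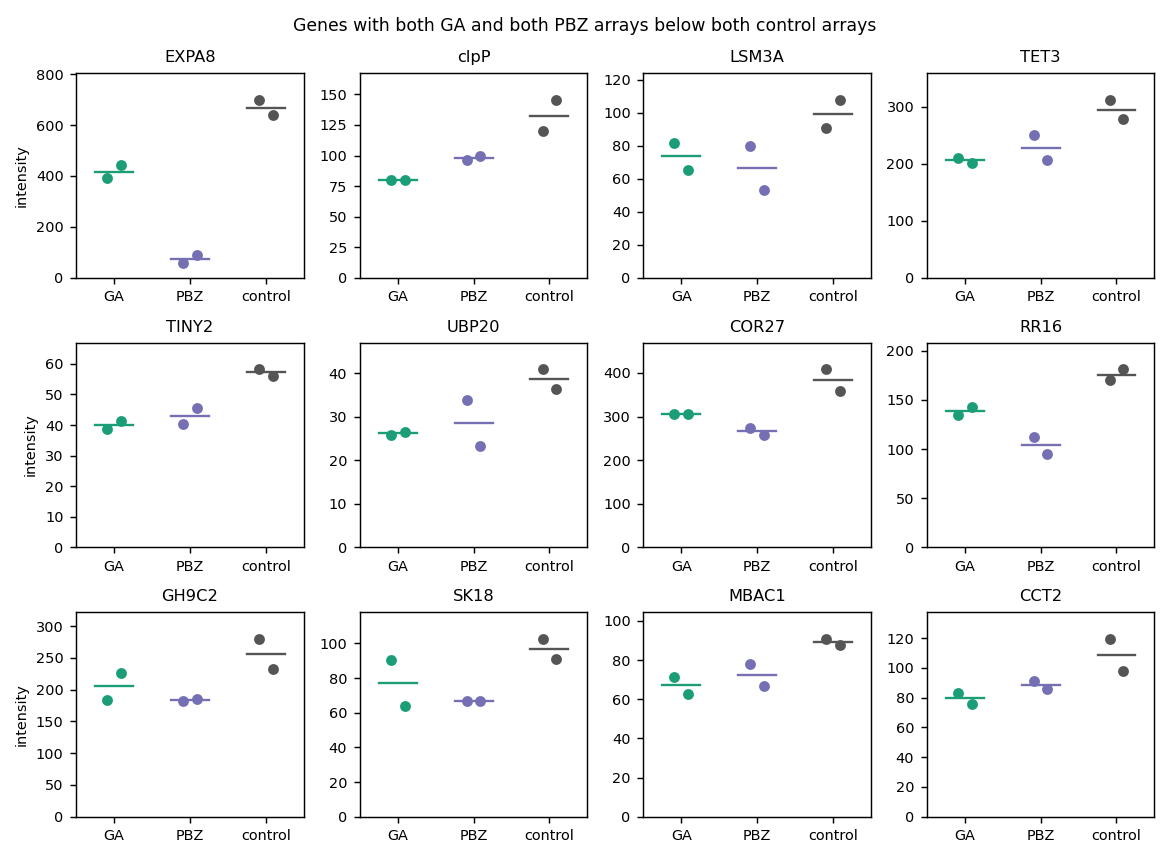
Intensity (linear scale from 0) of the 12 named lower genes in the 2 GA, 2 PBZ and 2 control arrays; points are arrays and short lines are group means. EXPA8 in PBZ, at 57.1 and 88.9, is the one large gap; in GH9C2 and SK18 a GA array (226.9 and 90.3) comes close to the lower control (233.1 and 90.8).

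Of the lower genes with a locus code only, AT1G48330 read 123.5 and 164.1 in GA and 103.6 and 118.3 in PBZ, against 212.1 and 233.9 in control (log2 -0.78, SE 0.15, adjusted p = 0.294). AT1G78070 read 64.0 and 66.8 in GA and 74.4 and 66.5 in PBZ, against 120.8 and 103.8 in control (log2 -0.65, SE 0.12, adjusted p = 0.273). Its 4 treated arrays lie between 64.0 and 74.4, well below the controls. AT2G44710, AT3G09860 and AT3G62950 had log2 differences of -0.79, -0.73 and -0.75 (adjusted p = 0.558, 0.459 and 0.476). AT2G44710 has a second probe set, which was not on 1 side.

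The treatments can share a side and still differ in size, and this difference sets treated arrays against each other, with the spread estimated over all 3 groups. In GA minus PBZ 44 of the 2889 members passed (1.52%), against 675 of all 22746 probe sets (2.97%); the rule used these treated arrays, so nothing is read from the lower share. Of the 16 lower members that passed, GA was farther from control in 0, and of the 28 higher ones in 14. The same split over all 675 calls was not computed, so no trait of the members is read from it. In EXPA8 and in DFR PBZ was the one farther from control. DFR (AT5G42800), which makes the precursors of anthocyanins, had 20.0 and 17.8 in GA and 143.7 and 150.8 in PBZ, against 14.5 and 16.7 in control, so its GA arrays barely cleared the controls (GA minus PBZ log2 -2.44, SE 0.12, limma adjusted p = 0.00343). PUB23 was the reverse, with GA above PBZ by 1.56 on the log2 scale (SE 0.23, adjusted p = 0.0299). CHI was lower in GA than in PBZ by a log2 difference of -1.13 (SE 0.21, adjusted p = 0.0499). The count of 44 was 11 when either control array was left out, 5 when PBZ replicate 1 was, 3 when PBZ replicate 2 was, and 0 when either GA array was.

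Each treatment alone gave few calls among the members. In PBZ minus control 33 of the 2889 passed (1.14%), against 117 of all probe sets (0.514%), and the rule used this contrast. In GA minus control 0 passed, as over all probe sets (0%; limma, Benjamini-Hochberg), with 761 of the members at an unadjusted p under 0.05, against 1931 of all probe sets (8.49%). The rule used this contrast too, so nothing is read from these counts. In place of 33, there were 0 when any 1 control or PBZ array was left out and 2 when either GA array was. Under both treatments, PBZ was the one farther from control in 866 of the 1363 higher and 857 of the 1526 lower members. The same share over all probe sets was not computed. Over all of them PBZ minus control had 117 calls and GA minus control 0, so no trait of the members is read from this. The plastid gene petN, for a small subunit of the cytochrome b6f complex, had 20.9 and 13.1 in GA and 28.9 and 29.9 in PBZ, against 3.0 and 4.1 in control. All treated arrays are clear of the controls, which lie under the pseudocount of 10, so the log2 difference of 1.26 (SE 0.15, adjusted p = 0.186) ran from 0.62 to 2.36 over 16 alternatives.

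By function, 43 gene lists were looked at, of which 4 had no measured gene and 27 had at least 3. The lists went by symbol, and 1557 of the 13355 genes have a symbol of their own, so a list can miss genes of its family. As no probe set passed the adjusted p, no list could hold a gene past it. Over all 13355 genes, 5.44% were higher and 6.89% lower members, and the median log2 difference of both treatments from control was -0.0002. Of 69 plastid-encoded genes, 1 was a higher member (petN) and 5 were lower, with a median of -0.13. Besides clpP, psbT, for a small subunit of photosystem II, was among the lower ones, at 11.8 and 16.1 in GA and 12.3 and 14.5 in PBZ, against 22.1 and 23.8 in control. Of 8 nuclear photosynthesis genes 0 were higher and 1 was lower (PSBW), with a median of -0.09.

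Several lists tied to defence and signalling had unlike medians in the treatments, which was not tested. The 12 jasmonate genes had a median of -0.11 in GA and 0.98 in PBZ, and 1 was a higher member. This was JRG21 (AT3G55970), a jasmonate-regulated oxygenase, at 7.2 and 0.9 in GA and 33.3 and 32.3 in PBZ, against 0.5 in both control arrays. The 7 calmodulin-like genes had 0.60 in GA and 0.09 in PBZ, with CML41 the 1 higher member. The 6 WRKY transcription factor genes had 0.35 in GA and 0.02 in PBZ, and 1 was a higher member. WRKY6 (AT1G62300), which acts in senescence and phosphate response, was that member, at 19.7 and 15.5 in GA and 21.1 and 15.8 in PBZ, against 11.4 and 2.2 in control. The 9 PUB ligase genes had 0.44 in GA and 0.01 in PBZ, with 2 higher members.

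In the lists for growth, the counts were too small to set against the shares over all genes. Of 18 expansin genes 0 were higher and 2 lower (EXPA8, and EXPA24 at 0.9 to 2.2 on all arrays), and of 13 auxin response genes 0 were members. Of 9 xyloglucan endotransglucosylase genes 1 was higher, XTH29 (AT4G18990), at 7.4 and 9.4 in GA and 8.6 and 8.4 in PBZ, against 4.5 and 3.4 in control. Of 11 pectin and cellulose wall genes 1 was higher, CSLA01 (AT4G16590), of the cellulose synthase-like family, at 10.6 and 16.6 in GA and 13.8 and 18.6 in PBZ, against 7.7 and 2.5 in control. The 5 measured genes of the gibberellin list, the receptors GID1A, GID1B and GID1C and the signalling genes SLY1 and SPY, had a median of -0.29 in GA and 0.75 in PBZ, on opposite sides, and 0 were members. Of 40 flowering and MADS genes 3 were lower and 0 higher. AGL72 (AT5G51860), a MADS-box gene of the SOC1 type, read 0.5 and 0.4 in GA and 0.7 and 0.8 in PBZ, against 7.8 and 5.7 in control, all under the pseudocount.

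**Figure D4:**
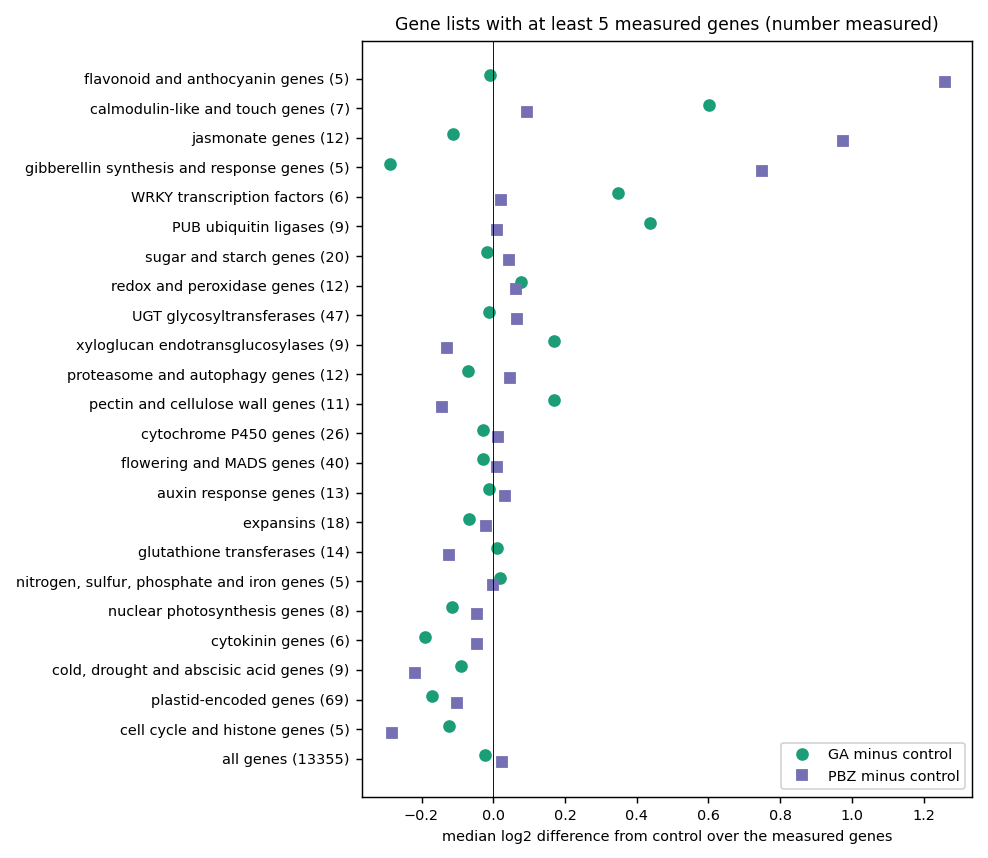
Median log2 difference from control for each gene list with at least 5 measured genes (number in brackets), circles for GA and squares for PBZ, with all genes in the bottom line. Flavonoid, jasmonate and gibberellin genes have PBZ medians of 1.26, 0.98 and 0.75 with GA medians under 0, and calmodulin-like, WRKY and PUB genes have GA medians of 0.60, 0.35 and 0.44 with PBZ medians of 0.09 or less.

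In the redox and stress lists, too, the counts were too small to set against the shares over all genes. Of 12 redox and peroxidase genes 1 was higher (MSRB9) and 2 lower. TRXF2 (AT5G16400), a plastid thioredoxin, read 487.7 and 478.3 in GA and 448.7 and 413.8 in PBZ, against 527.1 and 571.4 in control. MSRA5 (AT2G18030), a methionine sulfoxide reductase like MSRB9 but of the A type, read 121.4 and 109.2 in GA and 71.6 and 67.4 in PBZ, against 122.0 and 132.9. The GA arrays of MSRA5 only just cleared the lower control, with log2 differences from control of -0.13 in GA and -0.79 in PBZ. MSRB3, MSRB5 and MSRB6, also in this list, were no members, so nothing is read about these repair enzymes as a group. Of 14 glutathione transferase genes 1 was higher, GSTU16 (AT1G59700), and 2 were lower, and of 9 cold, drought and abscisic acid genes 1 was higher, LEA4-5 (AT5G06760), and 1 lower, COR27. CRT1b (AT1G09210), a calreticulin that folds proteins in the endoplasmic reticulum, read 456.6 and 476.3 in GA and 497.2 and 458.0 in PBZ, against 402.9 and 353.8 in control (log2 0.31, SE 0.11, adjusted p = 0.518). Of the 3 measured genes of the endoplasmic reticulum stress and folding list, CRT1b was the 1 member, and PDIL5-1 and BZIP60 were none. The list had a median of 0.30 in GA and 0.02 in PBZ. BZIP28, described above and not in this list, was also a higher member. In CRT1b and BZIP28 the GA and PBZ arrays overlap.

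The rule takes no account of the size of the gap. Just inside it, GSA1 (AT5G63570), an enzyme of tetrapyrrole synthesis, read 356.2 and 350.5 in GA and 373.3 and 347.5 in PBZ, against 347.4 and 310.6 in control. Just outside it, SEH1H (AT1G64350), a nuclear pore protein, tied at 37.2 between a GA array and a control array. On the lower side HEME2 (AT2G40490), of heme and chlorophyll synthesis, was just inside with 741.1 in a GA array and 741.5 in a control array, and HTB2 (AT5G22880), a histone H2B, was just outside with 324.1 and 323.8.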

How the data were processed

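RNA from whole rosettes was measured on 6 arrays. The deposited table holds linear intensity values per probe set, up to 7413.9; the mean after trimming 2% at each end was 100.01 in every array. The submitters' processing notes name RMA and affy; the sources used here do not say how these linear values were made. The labels' molecule field says total RNA, while their protocol also describes RNA from tagged ribosomes. Of 22810 rows, 64 control probe sets were left out. Of the rest 13513 name 1 gene, 503 several and 8730 none here; 13436 matched the RefSeq table (TAIR10.1).

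With R 4.3.3 and limma 3.58.1, log2(intensity + 10) was fitted with a mean per group (3 residual and 3.07 prior degrees of freedom), eBayes and Benjamini-Hochberg adjustment over all 22746 probe sets, with a threshold of 0.05; the code was tested on simulated data. P-values set differences of group means against the spread between replicates, moderated by a prior estimated over the tested probe sets. Fold changes are on the log2(intensity + 10) scale.

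Named genes used the brightest probe set. They are the 12 genes each way with a symbol, and 5 with a locus code, whose smaller difference from control was largest, with a control or treated mean of at least 32 and, as too few passed, an unadjusted p under 0.05; up to 3 members of each list with at least 3 measured genes; CHI and petN, known from earlier results; and the 2 nearest each side of the rule, of which the text gives 1. Gene lists went by symbol pattern, and after the files were opened the plastid and mitochondrial patterns were matched to RefSeq locus codes; the histone pattern (which caught an unrelated gene) and the cytokinin pattern were changed after values were seen. The members and lists were chosen with earlier results of these data known. The labels give same-numbered replicates no link but the number. Their deviations from the group means correlated at -0.001 to 0.031 across all probe sets, and a factor shared in some genes was not tested.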

Additional observations from a re-analysis of the deposited data

Results flagged for a closer look

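For 6 named members the treatments lay on the same side of control but differed from each other by a test of GA minus PBZ (limma, adjusted over all probe sets). On the log2 scale this difference was -2.44 for DFR (adjusted p = 0.00343), -1.64 for JRG21 (0.0225), -1.13 for CHI (0.0499) and -0.995 for AT5G39520 (0.0463), with PBZ higher than GA. It was 2.39 for EXPA8 (0.00917) and 1.56 for PUB23 (0.0299), with GA higher than PBZ. Groups of 2 arrays are too small for a test of outlying arrays.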

How the results depend on the processing

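Over 17 alternatives, the count of probe sets past the threshold in the mean of both treatments minus control stayed at 0 under 12 and moved under 5: 70 without the 40% dimmest probe sets, 19 with a floor of 10, 7 with the variance prior trended on intensity, 1 with a pseudocount of 32 and 1 with the replicate block; it was 0 without any 1 array. Members numbered 840 higher and 982 lower without the dimmest (of 13647), and 717 and 912 among the 13230 probe sets of 1 gene without cross-hybridising types, where fewer were tested. Without 1 array, which makes the rule easier to meet, they ranged from 1954 to 4081 higher and 2119 to 4352 lower. Members passing in GA minus PBZ (44) numbered 9 with a pseudocount of 1, 75 without the dimmest, 21 with the replicate block, 10 among probe sets of 1 gene, and 0 to 11 without 1 array. Members passing in PBZ minus control (33) numbered 0 with a pseudocount of 1, 65 with one of 32, 147 without the dimmest, 85 with the trend, 13 with the replicate block, 5 among probe sets of 1 gene, and 0 to 2 without 1 array. Members passing in GA minus control (0) numbered 2 with the floor, 55 without the dimmest, 11 with the trend, 1 with the replicate block, and 0 without any 1 array. Apart from counts with fewer probe sets or arrays, the cause was not tested. Alternatives for the PBZ and GA counts, and the filter for the member counts, were chosen after seeing the data. For the 69 named genes no log2 difference changed sign; it was exactly 0 with the floor for 8 genes that lay under it on all arrays (AGL72, XTH29 and SWEET7 among them). Signal limits dim genes: 26.8% to 29.4% of values per array lay under 10.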

Other observations

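With the 40% dimmest probe sets left out, a pass in the mean of both treatments minus control did not always mean a common side. PDF1.2b (log2 1.74), MSRB6 (-0.95), CML38 (1.34) and BZIP61 (-0.74) passed limma's adjusted threshold there, and their arrays were not on 1 side of both controls. PDF1.2b is a plant defensin, MSRB6 a methionine sulfoxide reductase, CML38 a calmodulin-like calcium sensor and BZIP61 a bZIP transcription factor. BZIP61 had 1 group mean under the filter's limit of 19.3 and CML38 had 2, so they were kept through the groups where they were high. The same held for the members PUB23, with means of 61.8 in GA, 13.9 in PBZ and 9.15 in control, and DFR, with 18.9 in GA, 147.2 in PBZ and 15.6 in control. Among members that passed with every group mean over the limit were CHI, CML41, EXPA8, AT5G39520 and AT4G29610. The rule chose the members from these same arrays, so these passes are no support for a common change either. These genes were listed after their values were seen.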
